A study of Mus musculus with 6 samples.

Results

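RNA sequencing compared 2 groups of mouse spinal cord samples gene by gene. Group TG carries a label of mechanical injury followed by 75% hydrogen, and group IG is labelled as a control without any processing; the source of both is given as neurons. Each group had 2 libraries, which makes 4 of the 6 libraries of the series; the other group, NG, is labelled as injured without hydrogen. Genes were kept where the mean of the deposited TG and IG columns was 10 or more normalised reads, which left 16168 of 35275 genes, and every difference is TG minus IG. Just inside this limit was Sapcd1, with 9.43 in TG and 10.6 in IG, and just outside it C1s2, with 8.59 in TG and 11.4 in IG. Per the labels, every group used ICR animals (a mouse stock kept outbred) on day 3 after birth, and DMEM, a standard medium, was used in culture. TG and IG differ in both injury and hydrogen, so the 2 cannot be told apart in this comparison. The labels give neither the number of animals nor whether the libraries of a group came from separate cultures, so the p-values reflect variation from library to library that may be no more than technical.

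Spinal cord neurons pass sensory and motor signals along the body. Excitatory neurons release glutamate and inhibitory neurons release GABA or glycine, motor neurons release acetylcholine to muscle, and sensory neurons lie outside the cord in the dorsal root ganglia. After a mechanical injury, neurons and glia switch on immediate early, stress and repair genes, and blood cells can enter. Molecular hydrogen is a gas studied as an antioxidant, so genes that respond to oxidants are part of what such a comparison can address.

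The TG libraries A (the deeper) and B held 23911141 and 16790032 reads in genes, and the IG libraries A and B held 23516544 and 15749447. The deposited columns are group means that carry no sample numbers; reads per library were solved from them, and levels below are these reads divided by size factors (normalised reads), always given for library A and then B. Across the 16168 genes, Pearson's r of the log2 levels was 0.993 between the TG libraries, 0.992 between the IG libraries and 0.951 to 0.954 between a TG and an IG library. The median absolute log2 difference was 0.117 between the TG libraries and 0.146 between the IG libraries, and the median absolute log2 fold change between the groups was 0.208. Over all 16168 genes the median log2 fold change was 0.017, with quartiles of -0.21 and 0.21.

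All 4 libraries held transcripts of neurons, and also of other cells than the labelled neurons. Rbfox3, which encodes the neuronal nuclear protein NeuN, had 2178 and 2857 normalised reads in TG, against 1510.4 and 1778 in IG, and Snap25, of the vesicle fusion machinery, had 20001 and 18546 normalised reads in TG, against 12600.5 and 11910.5 in IG. Both genes were high in all 4 libraries. Mbp, for the myelin basic protein of oligodendrocytes, had 1384655 and 1406752 normalised reads in TG, against 1099322 and 1171731 in IG. The astrocyte filament gene Gfap had 54431 and 57845 normalised reads in TG, against 70036 and 73737 in IG, and the beta globin gene Hbb-bs of red blood cells had 166816 and 183840.2 normalised reads in TG, against 143251 and 150635 in IG. The microglial receptor gene Cx3cr1 had 870.4 and 931 in TG and 893 and 905 in IG, and the skeletal muscle actin gene Acta1 had 5864 and 5951 in TG and 4007 and 4399 in IG. Myelin genes, 12 in the list, made up 12.5% and 12.6% of the reads in TG and 10.5% and 10.7% in IG, and the 16 general neuron markers 0.692% and 0.694% in TG and 0.598% and 0.6% in IG.

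Of the 16168 genes, 2599 (16.1%) differed between TG and IG at an adjusted p under 0.05 (limma, two-sided, Benjamini-Hochberg): 968 (5.99%) were higher in TG and 1631 (10.1%) were lower. Differences of at least 2-fold among the called genes numbered 741 (4.58%), of which 92 (0.569%) were higher and 649 (4.01%) lower in TG. Of the called genes, 136 were at least 16-fold lower in TG and 2 at least 16-fold higher. Among the 4030 genes with a mean of 1000 or more, 461 were higher and 269 lower in TG; among the 4119 genes with a mean of 10 to 100, 73 were higher and 487 lower. In the authors' deposited table, 2592 of the 16168 genes (16%) had an adjusted p under 0.05, and 2279 of them were also called by limma, all in the same direction, which is 87.9% of the authors' calls and 87.7% of those of limma. Scaling by total reads called 2609 genes, of which 24.4% were higher in TG, against 37.2% with the scaling used here. The differences between libraries A and B of a group were shared between groups. Pearson's r of the A minus B log2 difference, across genes with a mean of 100 or more, was 0.508 between TG and IG, 0.503 between TG and NG and 0.692 between IG and NG. Since the labels do not say which library is A or B, this order by depth is no part of the design, and the test has no term for it. With a block on depth order, an alternative chosen after seeing the data, limma called 5549 genes (34.3%), 2693 higher (16.7%) and 2856 lower (17.7%) in TG. All 2599 genes were among them. Calls given below are without the block, and genes reported as not called may be called with it. Where TG libraries are said to lie above, below or apart from IG libraries, this describes the genes named. The share of all genes without such overlap is not given here, so it adds no support to the calls. Where it moved the called members of a list by over 1.5 times or changed the commoner direction, its counts stand beside the list's. Such blocked counts are to be set against the 16.7% of all genes higher and 17.7% lower with the block. List counts without the block are to be set against 5.99% higher and 10.1% lower. Leaving out a library left 2 libraries in 1 group and 1 in the other, and limma then called 2 genes without TG library A, 0 without TG library B, 74 without IG library A and 69 without IG library B. At an unadjusted p under 0.05 these fits gave 3464, 3483, 3870 and 3614 genes in the same order, and 1118 to 1895 genes were called when each fit used voom weights instead, an alternative chosen after seeing the data. Of 176 called genes covered by the naming rule and reported here, 2 stayed called without TG library A, 0 without TG library B, 15 without IG library A and 14 without IG library B, and none changed direction in any of these fits.

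**Figure D1:**
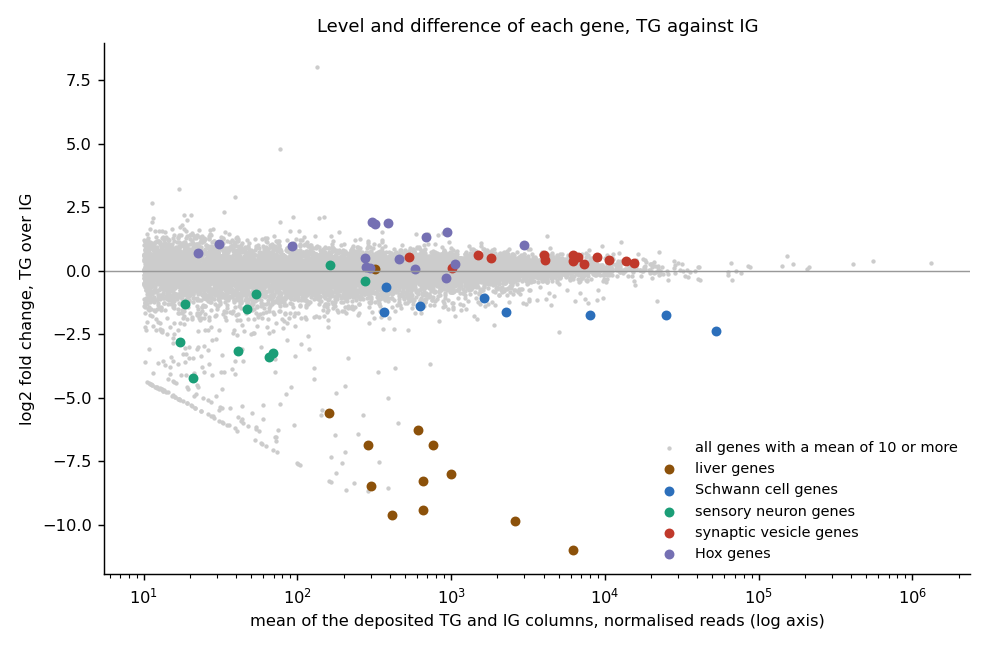
Each point is 1 of the 16168 genes; the horizontal axis gives the mean of the deposited TG and IG columns in normalised reads (log axis) and the vertical axis the log2 fold change of TG over IG. Coloured points are members of 5 gene lists: liver genes lie far below 0, Schwann cell and most sensory neuron genes below 0, synaptic vesicle genes above 0, and Hox genes range from -0.29 to 1.93.

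Liver genes had the lowest median of all the lists. Of 12 liver genes, 11 fell in TG, against 10.1% of all genes, and their median log2 fold change was -8.13, against 0.017 over all genes. In bulk RNA, a difference in the number of cells of a type and one in the RNA per cell cannot be told apart. The albumin gene Alb (chr5:90460897-90476602, mm10), which encodes the main plasma protein made by hepatocytes, had 4.02 and 5.70 normalised reads in TG, against 12178 and 11346 in IG (log2 fold change -10.98 ± 0.19 SE, adjusted p = 1.03e-07). The fetuin gene Ahsg had 5.63 and 3.42 normalised reads in TG, against 4969 and 4965 in IG (log2 fold change -9.84 ± 0.22 SE, adjusted p = 3.71e-07). For both genes the IG libraries were high and the TG libraries close to 0, without overlap. NG libraries had 37.9 and 31.3 reads of Alb and 27.2 and 24.1 of Ahsg, so the IG libraries were the high ones of all 6.

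Promoter sequences of the liver genes are shown because the strongest members of the list fell together. The HNF1 part searched for, GTTAAT on either strand, is a piece of the site of the hepatocyte factor HNF1 and was chosen after values were seen. It lay within 250 bases upstream of the start of 4 of the 9 liver genes with a RefSeq window (Alb, Fga, Fgb and Serpina1a), and in 7.49% of all 27025 genes with one. The 150 bases before the start of Alb (chr5:90460720-90460869 on the plus strand) and of Fgb (chr3:83049864-83050013 on the minus strand) follow, from RefSeq on GRCm38.p6, 5′ to 3′ on the gene's strand, with the match in capitals (ATTAAC is the same motif on the other strand). A match is a description and not a tested site.
Alb: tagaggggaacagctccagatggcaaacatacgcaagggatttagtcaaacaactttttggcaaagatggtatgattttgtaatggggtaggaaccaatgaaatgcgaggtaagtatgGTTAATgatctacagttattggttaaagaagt
Fgb: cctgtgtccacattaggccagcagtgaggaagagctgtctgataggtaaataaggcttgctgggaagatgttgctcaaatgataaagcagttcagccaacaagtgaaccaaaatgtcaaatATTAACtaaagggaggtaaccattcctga

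All 12 genes that the naming rule picked as furthest below IG are known for their expression in liver. Mat1a, for the liver form of the enzyme that makes S-adenosylmethionine, had 0 and 0 normalised reads in TG, against 778 and 789 in IG, which is at least 553-fold lower in TG when the TG group is set at a floor of 3 reads. Serpina3k, a serine protease inhibitor gene, had 0 and 0 normalised reads in TG, against 396 and 393 in IG and was at least 279-fold lower, and the carboxylesterase gene Ces1c was at least 224-fold lower by the same floor, with 0 and 0 in TG and 324 and 306 in IG. The pentraxin gene Apcs, for serum amyloid P, had 0 and 0 in TG and 311 and 302 in IG, at least 217-fold lower. None of these 4 genes had a read in a TG library. The fibrinogen chain genes moved alike: Fgb had 4.02 and 2.28 normalised reads in TG, against 1269.6 and 1206 in IG, Fga had 11.3 and 17.1 in TG and 1191 and 1102 in IG, and Fgg had 2.41 and 0 in TG and 1337 and 1174 in IG. With 3 reads in TG, the ratio for Fgg was 899-fold lower in TG with a 95% counting interval of 307 to 4360, which covers counting error only. The lipoprotein genes Apoa2 (0.804 and 0 in TG and 573 and 529 in IG), Apoa1 (10.5 and 12.6 in TG and 1426 and 1456 in IG) and Apob (1.61 and 0 in TG and 606 and 539 in IG) and the vitamin D carrier Gc (0.804 and 1.14 in TG and 763 and 709 in IG) were far lower in TG, with counting intervals of 211 to 46500 for Apoa2, 170 to 5080 for Apob and 217 to 6490 for Gc as fold lower. Igfbp1, for a binding protein of insulin-like growth factors, had 0.804 and 0 in TG and 407 and 474 in IG, which was 920-fold lower in TG with a counting interval of 165 to 36400. The remaining list members that fell were Hpx, for the haem carrier hemopexin (8.85 and 4.56 in TG and 1922 and 1883 in IG), Ttr, for the thyroid hormone carrier transthyretin (5.63 and 2.28 in TG and 576 and 513 in IG), and Serpina1a, for alpha-1 antitrypsin (4.83 and 5.70 in TG and 266 and 338 in IG). Trf, for transferrin, which oligodendrocytes also make, was the exception with 415 and 216 in TG and 391 and 208 in IG (log2 fold change 0.07, adjusted p = 0.965). Summed over the 12 genes, the level was 474 and 269 normalised reads in TG and 26909 and 25518 in IG. Most of the TG sum was Trf, at 415 and 216. As a share of reads the sums were 0.00246% and 0.00141% in TG and 0.148% and 0.14% in IG. With the 1 list member without a TG read set at its bound, the median of the list stayed at -8.13.

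**Figure D2:**
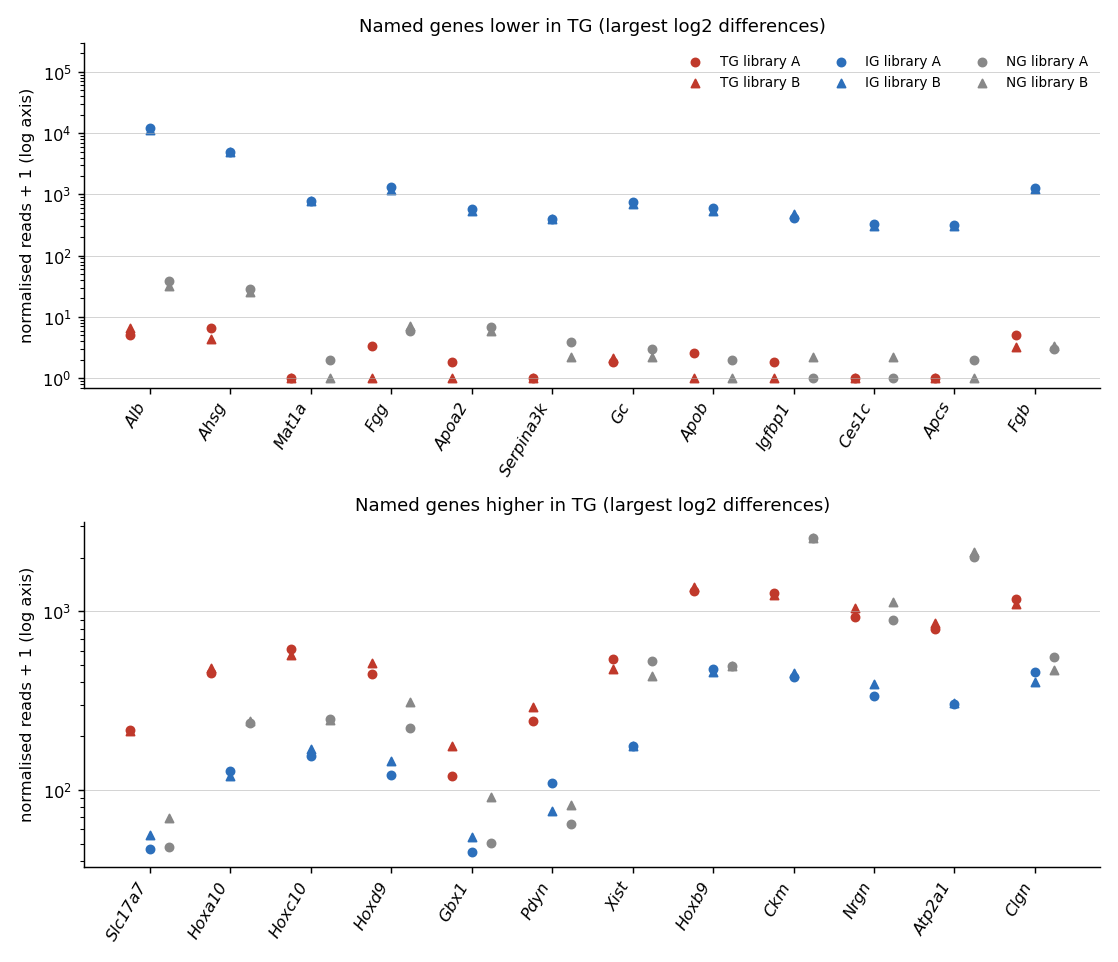
Normalised reads plus 1 (log axis) in each library for the 12 called genes with the largest negative (upper panel) and the 12 with the largest positive log2 fold change (lower panel) among genes with a mean of 100 or more, leaving out pseudogenes of the -ps type (Rpl17-ps5, at least 186-fold higher in TG, is one) and gene models without a proper name. Circles are library A and triangles library B. TG and IG do not overlap for any of the 24 genes because the naming rule required it. In the upper panel IG libraries reach 12178 (Alb) and TG libraries stay at 5.70 or less.

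Genes of peripheral nerve were lower in TG. All 8 Schwann cell genes fell, with a median log2 fold change of -1.64; Schwann cells make the myelin of nerves and roots outside the cord. Pmp22, for a peripheral myelin protein, had 11325 and 10477 normalised reads in TG, against 37537 and 35545 in IG (log2 fold change -1.75 ± 0.096 SE, adjusted p = 3.88e-05), and Prx, for periaxin, had 3319 and 3670.4 normalised reads in TG, against 11249 and 12305 in IG (log2 fold change -1.75 ± 0.095 SE, adjusted p = 3.88e-05). For both genes the IG libraries were close to each other and far above both TG libraries. Ncmap (-1.64), Mlip (-1.64), Egr2 (-1.39), Pmp2 (-1.09) and Cdh19 (-0.63) fell too (log2 fold changes in parentheses, as for other genes named with 1 value). Egr2 encodes the transcription factor that drives peripheral myelination and is also an immediate early gene. Summed Schwann cell levels were 33572 and 33625 normalised reads in TG and 137807 and 142497 in IG.

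Sensory neuron genes fell in TG for 7 of 10 members, with a list median of -2.14. Scn10a, for a sodium channel of pain-sensing neurons, had 11.3 and 9.13 normalised reads in TG, against 114 and 116 in IG (log2 fold change -3.38 ± 0.20 SE, adjusted p = 4.72e-05). Avil, for the sensory neuron protein advillin, had 12.1 and 11.4 normalised reads in TG, against 120.0 and 119 in IG (log2 fold change -3.25 ± 0.19 SE, adjusted p = 4.85e-05), and Scn11a, for a second sodium channel of these cells, had 8.85 and 5.70 normalised reads in TG, against 74.3 and 67.3 in IG (log2 fold change -3.14 ± 0.27 SE, adjusted p = 0.000274). Each of these genes was low in both TG libraries and several times higher in both IG libraries. Mrgprd, for a receptor of non-peptidergic skin afferents, had 0 and 3.42 normalised reads in TG, against 40.3 and 36.0 in IG; with 3 reads in TG its ratio was 27.2-fold lower in TG, with a 95% counting interval of 9.0 to 135. Prdm12 (-2.79), a transcription factor gene needed for pain neurons, and P2rx3 (-0.93), for an ATP-gated channel, fell as well. Trpv1 (-1.32), Piezo2 (-0.40) and Pou4f1 (0.21) did not pass the test. Summed over the list, levels were 515 and 479 normalised reads in TG and 986 and 968 in IG.

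Calcitonin gene-related peptide is made by sensory and motor neurons, and both of its genes fell in TG. Calca had 149.6 and 176 normalised reads in TG, against 819.9 and 839.9 in IG (log2 fold change -2.35 ± 0.11 SE, adjusted p = 2.31e-05), and Calcb had 26.5 and 36.5 normalised reads in TG, against 125 and 115 in IG (log2 fold change -1.91 ± 0.21 SE, adjusted p = 0.00101). The TG and IG libraries did not overlap for either gene. The part of the sensory neuron and Schwann cell transcripts in these differences was not tested.

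Cholinergic and motor neuron genes were lower in TG for 6 of 10 members, with none higher and a median of -0.80. Isl2, a transcription factor gene of motor and sensory neurons, had 8.85 and 12.6 normalised reads in TG, against 56.5 and 75.4 in IG (log2 fold change -2.52 ± 0.28 SE, adjusted p = 0.000877). Prph, for the filament peripherin of neurons with axons outside the cord, had 505 and 619.5 normalised reads in TG, against 1322 and 1413 in IG (log2 fold change -1.29 ± 0.11 SE, adjusted p = 0.000231). The acetylcholine genes fell by less: Slc18a3, for the vesicular transporter, had 205 and 194 normalised reads in TG, against 321 and 358 in IG (log2 fold change -0.76 ± 0.14 SE, adjusted p = 0.0113), and Chat, for the enzyme that makes acetylcholine, had 134 and 144 normalised reads in TG, against 211 and 197 in IG (log2 fold change -0.55 ± 0.14 SE, adjusted p = 0.041). Slc5a7 (-0.68), for choline uptake, and Chodl (-0.83) fell. Isl1 (-0.96), Mnx1 (-0.91), Lhx3 (-0.27) and Ret (-0.14) did not pass the test. Isl2, Prph and Ret are also expressed in sensory ganglia, whose genes were lower in TG as given above; that part was not tested.

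Genes of central synapses and spinal interneurons included many that were higher in TG. Of 14 synaptic vesicle genes 10 rose and none fell, against 5.99% of all genes that rose, with a median of 0.46. Vamp2, for the vesicle protein synaptobrevin, had 7433 and 7668 normalised reads in TG, against 5147 and 5346 in IG (log2 fold change 0.53 ± 0.069 SE, adjusted p = 0.00219). Syn2, for a synapsin, had 4805 and 4589 normalised reads in TG, against 3157 and 2930.4 in IG (log2 fold change 0.63 ± 0.087 SE, adjusted p = 0.0028). In each case both TG libraries lay above both IG libraries. Cplx2, Unc13a, Syngr3, Syn1, Vamp1 and Rab3a rose by 0.37 to 0.63 in log2 fold change. Sv2a, Sv2b, Cplx1 and Stx1a were not called, at 0.093 to 0.55.

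General neuron markers rose for 7 of 16 members (43.8%, against 5.99% of all genes), and none fell. The median was 0.37, and with the block 13 rose and 0 fell. Syt1, for the calcium sensor of vesicle release, had 2469.7 and 2232 normalised reads in TG, against 1313 and 1263 in IG (log2 fold change 0.87 ± 0.12 SE, adjusted p = 0.00236), and Snap25 rose as well (log2 fold change 0.65, adjusted p = 0.00251). Ina, for a neuronal filament, had 3646 and 3819 normalised reads in TG, against 2718 and 2819 in IG (log2 fold change 0.43 ± 0.075 SE, adjusted p = 0.00827), and Map2, for a dendritic microtubule protein, had 11629 and 10574 normalised reads in TG, against 8393 and 7460.4 in IG (log2 fold change 0.49 ± 0.11 SE, adjusted p = 0.0268). Syp, Gap43 and Elavl3 rose by 0.37 to 0.43. Rbfox3 (log2 fold change 0.61, adjusted p = 0.0577) missed the threshold, and the filament genes Nefh (-0.11), Nefm (0.023) and Nefl (0.17) and the tubulin gene Tubb3 (0.038) were not called; neither were Stmn2, Eno2, Uchl1 and Elavl4, at 0.27 to 0.37.

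Transmitter genes rose for 5 of 10 members and none fell (median 0.40). Slc17a7, for the vesicular glutamate transporter VGLUT1, which is abundant in large sensory afferents and in cortical neurons, had 216 and 212 normalised reads in TG, against 45.7 and 54.5 in IG (log2 fold change 2.08 ± 0.22 SE, adjusted p = 0.000825), the largest rise among the genes that the naming rule picked. The rule leaves out pseudogenes with symbols of the -ps type and gene models without a proper name. Slc17a6, for the transporter VGLUT2 of spinal excitatory neurons, had 2751 and 2542 normalised reads in TG, against 2012 and 1790.0 in IG (log2 fold change 0.48 ± 0.11 SE, adjusted p = 0.0278). The GABA-synthesising enzyme genes Gad1 (0.73) and Gad2 (0.82) and the glycine transporter gene Slc6a5 (0.45) rose as well. Gad2 had 1728 and 1716 normalised reads in TG, against 998 and 950.1 in IG, and both TG libraries were well above both IG libraries. Slc32a1 (0.35), Slc1a1 (0.015) and Slc17a8 (-0.34) did not pass the test.

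Transmitter receptor and voltage-gated channel genes rose for 10 of 20 members, none fell, and all 20 had a log2 fold change above 0 (median 0.56; with the block, 19 rose and 0 fell). Scn2a, for a sodium channel of unmyelinated axons, had 1250.2 and 1237 normalised reads in TG, against 673 and 662 in IG (log2 fold change 0.90 ± 0.085 SE, adjusted p = 0.000449), and Gria2, for an AMPA receptor subunit, had 1889 and 2080.0 normalised reads in TG, against 1263 and 1307 in IG (log2 fold change 0.62 ± 0.083 SE, adjusted p = 0.00231). Grin2b, for an NMDA receptor subunit, had 464 and 421 normalised reads in TG, against 259 and 220.4 in IG (log2 fold change 0.89 ± 0.13 SE, adjusted p = 0.00422), and Grin2a had 117 and 148 normalised reads in TG, against 55.7 and 54.5 in IG (log2 fold change 1.24 ± 0.27 SE, adjusted p = 0.0222). No TG library overlapped an IG library for these 4 genes. Scn8a, Scn1a, Cacna1a, Cacna1b, Gria1 and Kcna2 rose by 0.43 to 0.69. Glra3 (1.02), Glra1 (0.71), Kcnc1, Grin1, Gria4, Glrb, Kcna1 and Gabra2 (0.064) were not called.

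Transcription factors of spinal interneurons rose for 4 of the 13 measured members and none fell (median 0.60). Lbx1, which specifies dorsal interneurons, had 298 and 387 normalised reads in TG, against 122 and 164 in IG (log2 fold change 1.26 ± 0.28 SE, adjusted p = 0.0253). Lmx1b, a factor of excitatory dorsal horn neurons, had 228 and 291 normalised reads in TG, against 118 and 129 in IG (log2 fold change 1.06 ± 0.17 SE, adjusted p = 0.00603). Pax2, a factor of inhibitory neurons, had 442 and 503 normalised reads in TG, against 261 and 302 in IG (log2 fold change 0.75 ± 0.17 SE, adjusted p = 0.027), and Lhx5 had 129.5 and 119 normalised reads in TG, against 65.0 and 52.2 in IG (log2 fold change 1.08 ± 0.24 SE, adjusted p = 0.023). TG libraries were the higher ones for each of these genes, without overlap. En1 (-0.34), Gata3, Evx1, Tlx3, Prdm8, Lhx1, Tfap2b and Pax8 (0.81) were not called, and Ptf1a is listed at 0. Gbx1, a homeobox gene of the dorsal horn, was among the genes with the largest rise and had 118 and 176 normalised reads in TG, against 44.1 and 53.4 in IG (log2 fold change 1.55 ± 0.31 SE, adjusted p = 0.0161).

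Neuropeptide genes rose for 9 of 14 measured members, and the only 2 that fell were Calca and Calcb (median 0.87). Pdyn, for the opioid precursor prodynorphin of dorsal horn neurons, had 241 and 291 normalised reads in TG, against 108 and 75.4 in IG (log2 fold change 1.54 ± 0.22 SE, adjusted p = 0.00322), and Penk, for proenkephalin, had 1602 and 1734 normalised reads in TG, against 911 and 929 in IG (log2 fold change 0.86 ± 0.08 SE, adjusted p = 0.000422). Cck, for cholecystokinin, had 289 and 347 normalised reads in TG, against 137 and 133 in IG (log2 fold change 1.22 ± 0.14 SE, adjusted p = 0.00122), and Tac2, for neurokinin B, had 408 and 403 normalised reads in TG, against 214 and 175 in IG (log2 fold change 1.06 ± 0.13 SE, adjusted p = 0.00133). Both TG libraries exceeded both IG libraries for all 4 genes. Somatostatin (Sst, 1668 and 1710.3 normalised reads in TG, against 941 and 1036 in IG), neurotensin (Nts, 395 and 355 in TG and 209.8 and 179 in IG), neuropeptide Y (Npy, 214 and 187 in TG and 108 and 109 in IG), galanin (Gal, 98.1 and 79.9 in TG and 48.8 and 53.4 in IG) and gastrin-releasing peptide (Grp, 82.9 and 112 in TG and 38.7 and 46.4 in IG) rose by 0.77 to 1.16. Tac1 (0.38), Adcyap1 (0.53) and Nmu (1.00) did not pass the test, and Grpr had a mean under 10. Nrgn, for the postsynaptic calmodulin-binding protein neurogranin, and Clgn, for the chaperone calmegin, were also among the 12 genes with the largest rise, with 927 and 1042 normalised reads in TG, against 334 and 389 in IG (log2 fold change 1.45, adjusted p = 0.000385) and 1171 and 1099.9 normalised reads in TG, against 454 and 400.2 in IG (log2 fold change 1.41, adjusted p = 0.000193).

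Hox genes, which give cells their position along the body axis, had their highest median in the caudal paralog groups 9 and 10, with TG above IG. Of 39 Hox genes in the table, 32 had a mean of 10 or more; 10 rose and none fell with the scaling used, while Hoxc8 (-0.29) was called lower with total read scaling, with factors of the TG and IG libraries alone, with the TG and IG libraries alone in the fit, with genes with a mean of 10 or more alone in the fit, and with the block. Of the 16 Hox genes on the list, 7 rose, and with the block 11 rose and 1 fell. In paralog groups 9 and 10, 5 of 7 rose and the median log2 fold change was 1.52. In groups 1 to 8, 5 of 22 rose and the median was 0.36. In group 11, none of 3 was called, with a median of 0.96, and all 6 genes of groups 12 and 13 were below the limit, 1 of them (Hoxa13) listed at 0.

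Hoxa10 (chr6:52231197-52240854, mm10), expressed in the lumbar cord, had 452 and 483 normalised reads in TG, against 126 and 118 in IG (log2 fold change 1.93 ± 0.11 SE, adjusted p = 4.85e-05). Hoxc10 (chr15:102966796-102971893), a gene of lumbar motor neurons, had 611 and 565 normalised reads in TG, against 153 and 169 in IG (log2 fold change 1.86 ± 0.11 SE, adjusted p = 5.06e-05). Hoxd9 (chr2:74697727-74700208) had 446 and 511 normalised reads in TG, against 120.0 and 144 in IG (log2 fold change 1.85 ± 0.18 SE, adjusted p = 0.00049). For these 3 genes each TG library was more than 3 times as high as each IG library. Hoxb9 had 1307 and 1360.0 normalised reads in TG, against 475 and 457 in IG (log2 fold change 1.52 ± 0.083 SE, adjusted p = 3.88e-05), and its neighbour Hoxb8 had 3745 and 3856 normalised reads in TG, against 1827 and 1934 in IG (log2 fold change 1.02 ± 0.072 SE, adjusted p = 0.000114). Hoxa9 had 935 and 940.1 normalised reads in TG, against 391.7 and 349 in IG (log2 fold change 1.34 ± 0.11 SE, adjusted p = 0.000215). Also in groups 1 to 8, Hoxb3 (0.95), Hoxa5 (0.47), Hoxb6 (0.76) and Hoxb7 (0.60) rose. Hoxc9 (274 and 314 in TG and 249 and 300.5 in IG), Hoxa7 (498 and 645 in TG and 492 and 587 in IG) and Hoxb4 (157 and 157 in TG and 140.1 and 176 in IG) overlapped between the groups and were not called. Hoxd10 (0.97) and Hoxc11 (1.04) lay without overlap and were not called either. The Hoxc5 model spans those of Hoxc6, Hoxc8 and Hoxc9 and overlaps that of Hoxc10, so reads of these genes may be split between them and their values are uncertain. In NG libraries Hoxa10 had 235 and 242 and Hoxc10 249.8 and 246, between the levels of TG and IG.

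**Figure D3:**
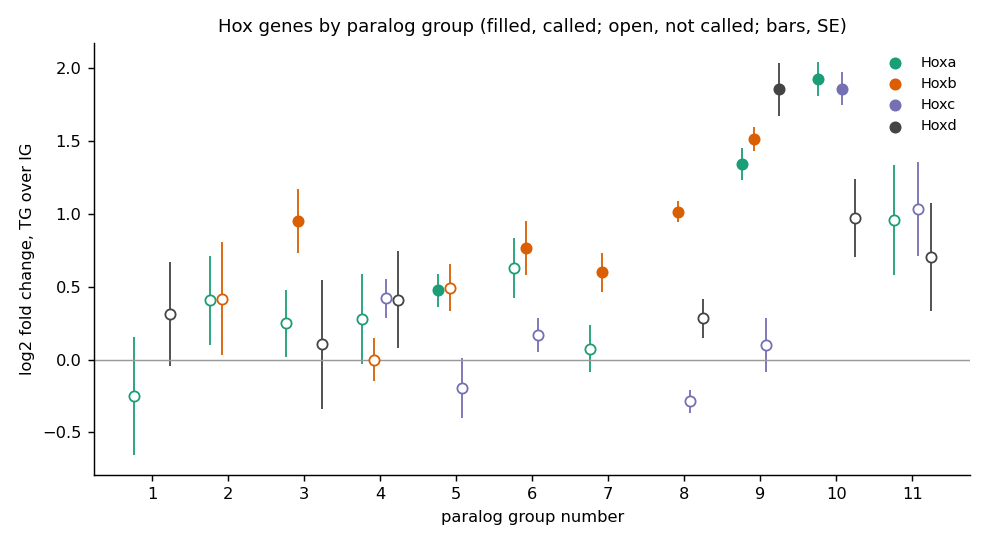
The horizontal axis gives the paralog group of each of the 32 Hox genes with a mean of 10 or more and the vertical axis the log2 fold change of TG over IG; bars are standard errors, colours the 4 clusters, and filled points have an adjusted p under 0.05. In groups 9 and 10, 5 of 7 points lie at 1.34 to 1.93, and Hoxc9 at 0.10 and Hoxd10 at 0.97 lie lower.

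Among glial lists, mature myelin genes tended upward and precursor, astrocyte and reactive genes held members that fell. Myelin genes rose for 4 of 12 members (33.3%, against 5.99% of all genes) and none fell, with a median of 0.22. With the block 9 rose and 0 fell, and with total read scaling 2 rose. Mobp, for a protein of compact central myelin, had 175384 and 176891 normalised reads in TG, against 117191 and 116381 in IG (log2 fold change 0.59 ± 0.11 SE, adjusted p = 0.0116), and Opalin, an oligodendrocyte gene, had 1730.4 and 1805 normalised reads in TG, against 1165 and 1148 in IG (log2 fold change 0.61 ± 0.074 SE, adjusted p = 0.00148). Mog and Ermn rose by 0.34 and 0.35. TG libraries were higher than IG libraries for these 4 genes. Mbp (0.30) did not pass the test, nor did Cnp, Aspa, Mag, Ugt8a, Cldn11 and Mal, at -0.0062 to 0.15.

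Oligodendrocyte precursor genes fell for 5 of 12 members (41.7%, against 10.1% of all genes) and none rose. The median was -0.48, and with the block 1 rose and 8 fell. Gpr17, a receptor gene of cells about to myelinate, had 4150.3 and 3907 normalised reads in TG, against 6861 and 6633 in IG (log2 fold change -0.74 ± 0.076 SE, adjusted p = 0.000631). Pdgfra, for the growth factor receptor that marks precursors and also fibroblasts, had 1003 and 868 normalised reads in TG, against 1613 and 1507 in IG (log2 fold change -0.74 ± 0.10 SE, adjusted p = 0.00295). Cspg4 (-0.57), Vcan (-0.72) and Nkx2-2 (-0.65) fell. Fibroblast genes, given below, moved in the same direction, and their part in the Pdgfra, Vcan and Cspg4 values was not tested. Sox10 (-0.53), Olig2 (-0.42), Cspg5, Enpp6, Olig1, Bcas1 and Myrf (0.15) were not called.

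Of 12 astrocyte genes, 3 (25%) fell and 1 (8.33%) rose, against 10.1% and 5.99% of all genes. The median was -0.28, and with the block 2 rose and 9 fell. Agt, for angiotensinogen, had 2755 and 2849 normalised reads in TG, against 3478 and 3869 in IG (log2 fold change -0.39 ± 0.083 SE, adjusted p = 0.0199), and Aldh1l1 fell by 0.32 on the log2 scale. Sox9, a glial transcription factor gene, had 783 and 801 normalised reads in TG, against 546 and 640.4 in IG (log2 fold change 0.42 ± 0.11 SE, adjusted p = 0.0448), a rise that was not called with total read scaling or with factors of the TG and IG libraries alone. Gfap had log2 fold change -0.36, adjusted p = 0.0553, with both TG libraries below both IG libraries. Aqp4, Gja1, Fgfr3, Glul, Slc1a2, Slc1a3 and S100b were not called, at -0.33 to 0.17. Reactive astrocyte genes moved further: 10 of 12 fell and none rose (median -1.11).

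Steap4, a metalloreductase gene induced in reactive astrocytes, had 154 and 119.8 normalised reads in TG, against 715 and 618 in IG (log2 fold change -2.28 ± 0.15 SE, adjusted p = 7.22e-05). Vim, for the filament vimentin, had 5386 and 5207 normalised reads in TG, against 11774 and 11544 in IG (log2 fold change -1.14 ± 0.072 SE, adjusted p = 6.38e-05), and Lcn2, for the iron-trapping protein lipocalin 2, had 504 and 560.2 normalised reads in TG, against 1503 and 1350.3 in IG (log2 fold change -1.42 ± 0.11 SE, adjusted p = 0.000185). IG libraries were more than 2 times as high as TG libraries for each of these genes. Gbp2 (-1.38), Timp1 (-1.28), Cp (-1.14), C3 (-1.08), Cd44 (-0.89), Serpina3n (-0.69) and Osmr (-0.68) fell. S1pr3 (-0.32) and Hspb1 (-0.24) did not pass the test. Several of these genes are expressed by other cells too: Vim and Timp1 by fibroblasts, Lcn2 by neutrophils, and C3 and Cp by liver, and those lists were lower in TG as well, with summed levels given beside them; their part here was not tested.

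Microglia genes were not called: 0 of 12 at an adjusted p under 0.05 in limma, with a median of -0.064. At an unadjusted p under 0.05 there was 1. With the block 2 were higher, where 16.7% of all genes were. None was called with total read scaling, upper quartile scaling or voom weights. Cx3cr1 had 870.4 and 931 in TG and 893 and 905 in IG. The members ranged from -0.30 for Aif1 to 0.23 for Siglech, and summed levels were 7682 and 7333 normalised reads in TG and 7686 and 7466 in IG. Tmem119, P2ry12, P2ry13, Csf1r, Selplg, Gpr34, Trem2 and Sall1 lay within this range.

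Ependymal genes, of the ciliated cells that line the central canal, were not called either (0 of 11 in limma, 8 at an unadjusted p under 0.05). Of the 11 measured members, 10 still had a log2 fold change above 0 (median 0.88). With the block 2 rose and 1 fell, against 16.7% and 17.7% of all genes. Foxj1, the transcription factor gene of motile cilia, had 582 and 649 normalised reads in TG, against 348 and 414 in IG (log2 fold change 0.70, adjusted p = 0.0712), and Rsph1 had 144 and 146 normalised reads in TG, against 105 and 91.6 in IG (log2 fold change 0.56, adjusted p = 0.159). TG libraries were the higher ones for both genes. Spag16 (1.39) and Ccdc153 (1.34) lay furthest above 0, then Ak7, Dnah11, Cfap126, Tmem212, Tekt1 and Dnah5, and Rarres2 (-0.50) lay below. With voom weights 3 of the 11 were called higher, and with the TG and IG libraries alone in the fit 5 were. Dnai2 was not analysed here.

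**Figure D4:**
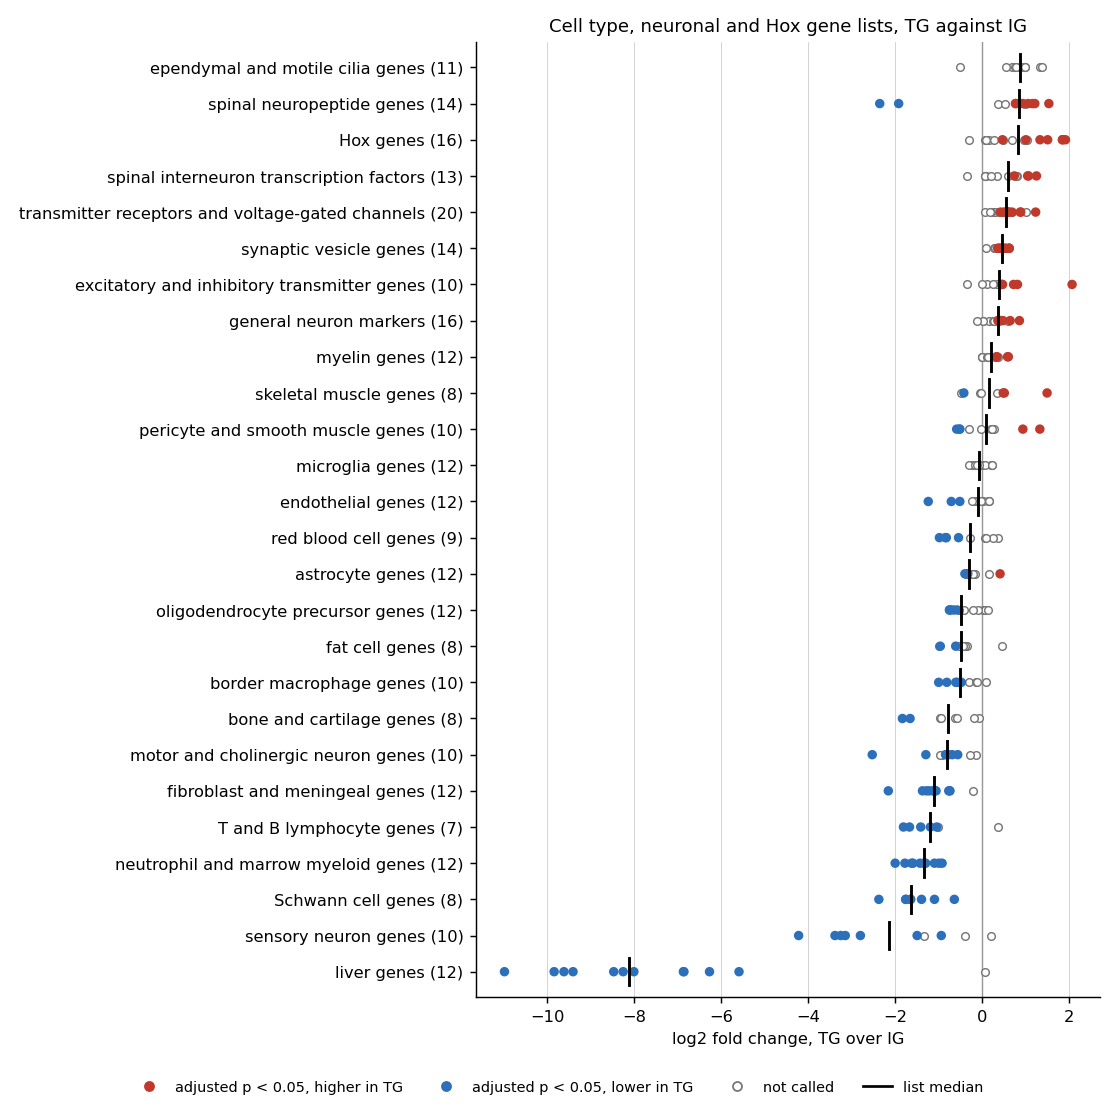
Each point is a gene of a cell type, neuronal or Hox list with a mean of 10 or more, at its log2 fold change of TG over IG; the vertical axis names the list with its number of members plotted, in order of the list median (black bar). Filled points have an adjusted p under 0.05 (red higher, blue lower in TG); the medians run from -8.13 for liver genes to 0.88 for ependymal genes.

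In blood and marrow cell lists, TG was lower for all or part of the members. All 12 neutrophil and marrow myeloid genes fell, with a median of -1.32. Ltf, for lactoferrin of neutrophil granules, had 299 and 342 normalised reads in TG, against 1343 and 1215 in IG (log2 fold change -1.99 ± 0.10 SE, adjusted p = 2.97e-05), and Ngp, for neutrophilic granule protein, had 556 and 671 normalised reads in TG, against 2069 and 2099 in IG (log2 fold change -1.77 ± 0.097 SE, adjusted p = 3.88e-05). Camp, for the antimicrobial peptide cathelicidin, had 209 and 201 normalised reads in TG, against 589.9 and 644 in IG (log2 fold change -1.58 ± 0.089 SE, adjusted p = 4.05e-05), and S100a9, for a calprotectin subunit, had 998 and 934 normalised reads in TG, against 2456 and 2279.5 in IG (log2 fold change -1.29 ± 0.086 SE, adjusted p = 8.32e-05). TG libraries were below IG libraries for every one of the 12. Mpo, Lcn2, Mmp8, Retnlg, S100a8, Mmp9, Elane and Prtn3 fell too, with log2 fold changes of -1.62 to -0.91. Summed levels were 3845 and 4257 normalised reads in TG and 11279.7 and 11158 in IG.

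Lymphocyte genes fell for 5 of 7 measured members (median -1.18), and all 5 are genes of B cells. Cd79b, for a B cell receptor chain, had 52.3 and 55.9 normalised reads in TG, against 182 and 201 in IG (log2 fold change -1.80 ± 0.13 SE, adjusted p = 0.00013), and Cd79a had 86.9 and 100.4 normalised reads in TG, against 273 and 325 in IG (log2 fold change -1.66 ± 0.14 SE, adjusted p = 0.000239). Ms4a1 (-1.40) and the immunoglobulin heavy chain gene Ighm (-1.03) fell. Of the T cell genes, Cd3d (-1.01) and Trac (0.37) were not called, and Cd3e, Cd4 and Cd8a had means under 10. Summed levels over the list were 709.5 and 815 normalised reads in TG and 1720.2 and 1779.6 in IG.

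Red blood cell genes fell for 4 of 9 measured members (44.4%, against 10.1% of all genes) and none rose. The median was -0.27, and with the block 2 rose and 5 fell. Slc4a1, for the anion exchanger band 3, had 1693 and 1608 normalised reads in TG, against 2878 and 3022 in IG (log2 fold change -0.84 ± 0.075 SE, adjusted p = 0.000308), and Epb42 (-0.82), of the membrane skeleton, also fell. The 4 globin genes were not called, at -0.27 for Hbb-bt, 0.081 for Hba-a1, 0.25 for Hbb-bs and 0.38 for Hba-a2, and the near-identical copies may share reads. Alas2 (0.11), the haem synthesis gene, was not called, and Ahsp was not analysed here. Voom weights called 2 members higher, beside the 4 lower. Summed levels over the list overlapped between the groups, with 394637 and 430104 normalised reads in TG and 357087 and 396092 in IG.

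Border macrophage genes fell for 5 of 10 members (median -0.50). F13a1, for a factor XIII chain, had 177 and 164 normalised reads in TG, against 311 and 287 in IG (log2 fold change -0.80 ± 0.11 SE, adjusted p = 0.00232), and Mrc1, for the mannose receptor, had 163 and 141 normalised reads in TG, against 242 and 219 in IG (log2 fold change -0.60 ± 0.14 SE, adjusted p = 0.0294). Cbr2 (-0.57), Pf4 (-0.47) and the monocyte receptor gene Ccr2 (-0.99) fell, and with upper quartile scaling or voom weights 3 of the 10 were called. Folr2, Cd163, Ms4a7, Stab1 and Lyve1 were not called, at -0.53 to 0.10. Summed levels were 1222 and 1177 normalised reads in TG and 1662 and 1521 in IG.

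Genes of the phagocyte NADPH oxidase, the enzyme with which neutrophils and macrophages make superoxide, fell for 6 of 7 members (median -0.86). Cybb, for its catalytic subunit NOX2, had 122 and 104 normalised reads in TG, against 326 and 304 in IG (log2 fold change -1.47 ± 0.15 SE, adjusted p = 0.000626). Ncf1, for the organising subunit, had 202 and 203 normalised reads in TG, against 441 and 401 in IG (log2 fold change -1.05 ± 0.097 SE, adjusted p = 0.000381), and Rac2, for its GTPase, had 221 and 232 normalised reads in TG, against 465 and 563 in IG (log2 fold change -1.17 ± 0.13 SE, adjusted p = 0.000948). Both TG libraries lay below both IG libraries for the 6 genes. Ncf4 (-0.86) and Cyba (-0.63) fell, and Nox4 (0.34), which is not a phagocyte gene, was not called. All 12 neutrophil genes moved in the same direction, with the sums given above, while the microglia list did not, and their part in these values was not tested.

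Antigen presentation genes fell for 8 of 12 members (median -0.72). Cd74, for the invariant chain of MHC class II, had 176 and 149 normalised reads in TG, against 453 and 528 in IG (log2 fold change -1.59 ± 0.13 SE, adjusted p = 0.000185), and B2m, for the light chain of class I, had 1148 and 1151 normalised reads in TG, against 1939 and 1941 in IG (log2 fold change -0.75 ± 0.082 SE, adjusted p = 0.000834). H2-Aa (-1.54), H2-Eb1 (-1.18), Tap1, Psmb8, Tap2 and H2-D1 (-0.48) fell. H2-Ab1 (-0.043) and H2-K1 (0.12) were not called, nor were Psmb9 and Ciita; MHC genes are polymorphic in an outbred stock and similar to each other, so reads may be split between them. B cells carry MHC class II, and their genes were lower in TG with the sums given above; that part was not tested.

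Complement genes fell for 4 of 11 measured members (36.4%, against 10.1% of all genes). The median was -0.46, and with the block 0 rose and 7 fell. C4b had 346 and 388 normalised reads in TG, against 803 and 853 in IG (log2 fold change -1.17 ± 0.096 SE, adjusted p = 0.000212), and C3, the central component, had 718 and 782 normalised reads in TG, against 1560.0 and 1614 in IG (log2 fold change -1.08 ± 0.082 SE, adjusted p = 0.000152). The receptor gene C5ar1 (-1.02) fell, whereas C1qa, C1qb and C1qc, made by microglia, were not called at -0.31, -0.40 and -0.56. C1ra, C1s1, C2 and C3ar1 were not called, and Cfb had a mean under 10. Of 13 measured interferon-stimulated genes 3 (23.1%) fell, against 10.1% of all genes, with a median of -0.38 (with the block 0 rose and 6 fell). Ifi27 had 368 and 358 normalised reads in TG, against 677 and 674 in IG (log2 fold change -0.89, adjusted p = 0.000326). Rsad2 (-0.64) and Irgm1 (-0.63) fell. Irf7 (-0.70), Ifit3 (-0.67), Isg15, Oas1a, Bst2, Gbp3, Ifit1, Oasl2 and Usp18 (0.017) were not called, and Mx1 had a mean under 10.

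Inflammatory cytokine genes were mostly not called. Of 16, 2 (12.5%) fell and none rose, against 10.1% and 5.99% of all genes (median -0.22; with the block, 1 rose and 5 fell). Tnf, for tumour necrosis factor, had 34.6 and 46.8 normalised reads in TG, against 122 and 160.1 in IG (log2 fold change -1.77 ± 0.33 SE, adjusted p = 0.0114), and Cxcl16 had 102 and 109.5 normalised reads in TG, against 168 and 155 in IG (log2 fold change -0.61 ± 0.15 SE, adjusted p = 0.0391). TG libraries were lower than IG libraries for both genes. Il1b (-0.92), Il6 (-0.52), Il1a, Ccl2, Cxcl12, Cxcl1, Ccl7, Cxcl10, Il11, Csf1, Ccl4, Lif, Cxcl2 (0.53) and Ccl3 (0.54) did not pass the test, and voom weights called 2 higher and 4 lower. The NF-kB motif, searched on both strands, lay within 250 bases upstream of 6 of 12 members with a window, none of them called, and of 8.23% of all 27025 genes.

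NF-kB is a transcription factor that inflammatory signals release from its inhibitors, and it induces its own subunits and inhibitors. Of 15 genes of its feedback and targets, 7 fell and none rose (median -0.40). Nfkb2, for the subunit p100, had 256 and 294 normalised reads in TG, against 553 and 638 in IG (log2 fold change -1.11 ± 0.18 SE, adjusted p = 0.0061). Nfkb1 had 687 and 718 normalised reads in TG, against 1025 and 998 in IG (log2 fold change -0.53 ± 0.081 SE, adjusted p = 0.00457), and Birc3, for an apoptosis inhibitor, had 174 and 152 normalised reads in TG, against 270.2 and 261 in IG (log2 fold change -0.71 ± 0.12 SE, adjusted p = 0.00826). Bcl3 (-1.23), Relb (-0.71) and the adhesion genes Vcam1 (-0.55) and Icam1 (-0.51) fell. The inhibitor genes Nfkbia (-0.36), Nfkbie (-0.40) and Tnfaip3 (-0.29) were not called, nor were Nfkbib, Nfkbiz, Ptgs2, Tnip1 and Sod2, at -0.17 to 0.24. The Nfkb2 promoter is shown because it is the called member whose window holds the NF-kB motif. That motif was found on either strand within 250 bases upstream of 6 of 11 members with a window. The 150 bases before the start of Nfkb2 (chr19:46304587-46304736 on the plus strand, RefSeq, GRCm38.p6) hold 3 matches, 2 of which overlap, in capitals.
Nfkb2: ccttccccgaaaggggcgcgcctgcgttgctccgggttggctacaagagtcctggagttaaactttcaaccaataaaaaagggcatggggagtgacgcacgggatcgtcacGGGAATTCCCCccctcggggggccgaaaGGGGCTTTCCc

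Genes of connective tissue fell in TG. All 15 collagen genes fell (median -1.22), and 11 of 12 fibroblast and meningeal genes did (median -1.09). Col1a1, for the main chain of fibrillar collagen, had 4291 and 4311 normalised reads in TG, against 9745 and 11088 in IG (log2 fold change -1.27 ± 0.10 SE, adjusted p = 0.000191). Col15a1, of basement membranes, had 624 and 621 normalised reads in TG, against 1718 and 1787 in IG (log2 fold change -1.49 ± 0.072 SE, adjusted p = 2.61e-05), and Col6a1 had 1035 and 1078 normalised reads in TG, against 2399.9 and 2569.6 in IG (log2 fold change -1.23 ± 0.074 SE, adjusted p = 4.85e-05). IG libraries were more than 2 times as high as TG libraries for these 3 genes. The network collagens of vessels fell by less, Col4a1 by 0.59 and Col4a2 by 0.60 on the log2 scale. The other 10 collagen genes lay between -1.47 (Col14a1) and -0.64 (Col11a1). Ogn, for the small proteoglycan osteoglycin, had 685 and 651 normalised reads in TG, against 3163 and 2791 in IG (log2 fold change -2.15 ± 0.10 SE, adjusted p = 2.31e-05), and Dcn, for decorin, had 1939 and 1916 normalised reads in TG, against 4383 and 3979 in IG (log2 fold change -1.12 ± 0.08 SE, adjusted p = 0.000124). Ptgds, for a prostaglandin synthase abundant in the meninges, had 12444 and 12762 normalised reads in TG, against 28168 and 30065 in IG (log2 fold change -1.21 ± 0.083 SE, adjusted p = 9.82e-05). Lum, Islr, Igf2, Pdgfra and Slc6a13 fell too, and Ranbp3l (-0.21) was not called. Summed fibroblast levels were 38918 and 38339 normalised reads in TG and 82993 and 85009 in IG, and their part in the collagen values, 3 of which are on both lists, was not tested.

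Scar proteoglycan and perineuronal net genes, which limit axon growth after injury, fell for 6 of 13 members (median -0.40; with the block, 2 rose and 9 fell). Tnc, for tenascin C, had 513 and 502 normalised reads in TG, against 791 and 717 in IG (log2 fold change -0.57 ± 0.09 SE, adjusted p = 0.00511), and Vcan, for versican, had 944 and 779 normalised reads in TG, against 1576 and 1263 in IG (log2 fold change -0.72 ± 0.16 SE, adjusted p = 0.0273). Cspg4, Ptprz1, Tnr and Ncan fell, with log2 fold changes of -0.57 to -0.40. Has2 (-0.76), Bcan, Cspg5, Acan, Hapln1, Hapln2 and Hapln4 (0.28) did not pass the test.

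Some vessel genes were called. Of 12 endothelial genes 3 (25%) fell and none rose, against 10.1% and 5.99% of all genes (median -0.076). With the block 1 rose and 4 fell, against 16.7% and 17.7% of all genes. Vwf, for von Willebrand factor, had 349.9 and 426 normalised reads in TG, against 883 and 933 in IG (log2 fold change -1.23 ± 0.11 SE, adjusted p = 0.000336). Abcb1a, for a pump of the blood-brain barrier, had 419.9 and 394 normalised reads in TG, against 691 and 635 in IG (log2 fold change -0.70, adjusted p = 0.0053). Cdh5 fell by 0.50 on the log2 scale. Pecam1, Cldn5, Tek, Tie1, Flt1, Kdr, Egfl7, Mfsd2a and Slco1a4 were not called, at -0.22 to 0.17. Of 10 pericyte and smooth muscle genes, 2 (20%) rose and 3 (30%) fell, against 5.99% and 10.1% of all genes (with the block 4 rose and 3 fell). Tagln had 689 and 665 normalised reads in TG, against 931 and 991 in IG (log2 fold change -0.50, adjusted p = 0.00376), and Myl9 (-0.58) and Pdgfrb (-0.51) fell. The muscle filament gene Des had 745 and 775 normalised reads in TG, against 377 and 412 in IG (log2 fold change 0.95, adjusted p = 0.000501). Cnn1 rose at low levels, with 49.1 and 59.3 normalised reads in TG, against 13.2 and 32.5 in IG (log2 fold change 1.34, adjusted p = 0.0459). Total read scaling called 1 of these 2 higher. Acta2, Myh11, Rgs5, Kcnj8 and Abcc9 were not called.

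Of 8 measured skeletal muscle genes, 3 (37.5%) rose and 1 (12.5%) fell, against 5.99% and 10.1% of all genes (median 0.17). Ckm, for muscle creatine kinase, had 1259 and 1237 normalised reads in TG, against 427 and 452 in IG (log2 fold change 1.5 ± 0.076 SE, adjusted p = 2.97e-05), and Atp2a1, for the calcium pump of fast muscle, named for the size of its rise, had 793 and 859 normalised reads in TG, against 303 and 307 in IG (log2 fold change 1.43 ± 0.085 SE, adjusted p = 4.72e-05). Both TG libraries were more than 2 times both IG libraries for these genes. Tnnt3 (0.52) and Acta1 (0.49) rose, and Myl1 fell by 0.41 on the log2 scale. Mylpf, Tnni2, Myh8 and Actn2 were not called, Myh3 had a mean under 10, and Tnnc2 is listed at 0. Summed levels were 13311 and 13136 normalised reads in TG and 10393 and 10604 in IG. Of 8 measured fat cell genes 2 (25%) fell, against 10.1% of all genes (with the block 0 rose and 5 fell). Fabp4 had 648 and 654 normalised reads in TG, against 1007 and 969 in IG (log2 fold change -0.60, adjusted p = 0.00278). Adipoq fell as well (log2 fold change -0.95, adjusted p = 0.0492). Cfd, Plin1, Pparg, Lipe, Ucp1 and Cidec were not called, and Retn and Lep had means under 10. Of 8 measured bone and cartilage genes 2 (25%) fell, against 10.1% of all genes (with the block 0 rose and 4 fell). Col2a1, of cartilage, had 138 and 155 normalised reads in TG, against 500.1 and 545 in IG (log2 fold change -1.83, adjusted p = 0.000185). Bglap, for osteocalcin, fell as well (log2 fold change -1.65, adjusted p = 0.00715). Ibsp, Dmp1, Col9a1, Matn1, Acan and Sp7 were not called, at -0.96 to -0.062, and Phex and Sost had means under 10.

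Immediate early genes, which neurons and other cells induce within minutes of activity or injury, moved in both directions. Of 18, 5 (27.8%) fell and 3 (16.7%) rose, against 10.1% and 5.99% of all genes, with a median of -0.12. With the block 6 rose and 8 fell, where 16.7% of all genes rose and 17.7% fell. The 3 that rose without the block were not called with total read scaling. Nr4a2 had 204 and 211 normalised reads in TG, against 430.4 and 468 in IG (log2 fold change -1.11 ± 0.12 SE, adjusted p = 0.000669), and Nr4a1, for the orphan receptor Nur77, had 1430.4 and 1525 normalised reads in TG, against 2279 and 2809 in IG (log2 fold change -0.78 ± 0.11 SE, adjusted p = 0.0029). Nr4a3 (-0.60), Fosl2 (-0.48) and Egr2, given among the Schwann cell genes, fell. Arc, for a protein of active synapses, had 860.0 and 849 normalised reads in TG, against 518 and 623 in IG (log2 fold change 0.59, adjusted p = 0.0308), Egr1 had 3418 and 3535 normalised reads in TG, against 2689 and 2907 in IG (log2 fold change 0.31, adjusted p = 0.0348), and Jun had 3749 and 4059.5 normalised reads in TG, against 2797 and 3161 in IG (log2 fold change 0.39, adjusted p = 0.0494). Fos (0.23), Fosb (0.056), Junb (-0.028), Npas4 (0.54), Egr4 (1.26), Egr3, Ier2, Ier5, Btg2 and Klf4 were not called. The CRE part TGACG was found on either strand within 250 bases upstream of 11 of the 14 members with a window, among them Egr2 and all 3 Nr4a genes, and of 19.8% of all genes; the whole CRE, TGACGTCA, was found in 1 of the 14 (1.77% of all genes) and the CArG box of serum response factor in 1, Egr2 (1.62%). Of 12 genes of MAP kinase feedback, 2 (16.7%) fell and none rose, against 10.1% and 5.99% of all genes (median -0.07). Dusp6 had 592 and 543 normalised reads in TG, against 838 and 814 in IG (log2 fold change -0.54, adjusted p = 0.0102). Errfi1 had 2845 and 2810.2 normalised reads in TG, against 3836 and 3632 in IG (log2 fold change -0.40, adjusted p = 0.00972). Dusp1, Dusp2, Dusp4, Dusp5, Dusp10, Spry1, Spry2, Spry4, Spred1 and Spred2 were not called, at -0.36 to 0.28.

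Axon injury and regeneration genes rose for 5 of 13 members (38.5%) and 1 fell (7.69%), against 5.99% and 10.1% of all genes. The median was 0.20, and with total read scaling 2 rose. Atf3, a transcription factor gene that injured neurons induce, had 1147 and 1127 in TG and 1082 and 1049 in IG (log2 fold change 0.095, adjusted p = 0.687) and was not called. Gap43, for a growth cone protein, had 2608 and 2607 normalised reads in TG, against 1995 and 2019.7 in IG (log2 fold change 0.38, adjusted p = 0.0114), and Stmn4 had 3797 and 3618 normalised reads in TG, against 3053 and 3022 in IG (log2 fold change 0.29, adjusted p = 0.0342). Jun, Gal and Npy rose as given above. Arg1, for the enzyme arginase 1, had 18.5 and 29.7 normalised reads in TG, against 172 and 184 in IG (log2 fold change -2.87 ± 0.29 SE, adjusted p = 0.000555); it is also a urea cycle gene of hepatocytes, whose genes were lower in TG, and that part was not tested. Sprr1a (-0.91), Sox11 (0.20), Ecel1, Klf6, Gadd45a and Csrp1 did not pass the test. Of 10 measured neurotrophic factor genes, 3 (30%) fell and none rose, against 10.1% and 5.99% of all genes (with the block 4 rose and 3 fell). Ngfr, for the p75 receptor of Schwann cells and sensory neurons, had 98.1 and 119 normalised reads in TG, against 235 and 279.6 in IG (log2 fold change -1.24, adjusted p = 0.00237), and Il6st fell by 0.38 on the log2 scale. Bdnf (0.70), Gdnf (-0.45), Lifr, Ntrk2, Ntrk3, Gfra1 and Gfra2 were not called, and Ntf3 and Cntf had means under 10.

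Antioxidant genes controlled by Nrf2, the factor that senses oxidants, were mostly not called. Of 16, 3 (18.8%) fell and none rose, against 10.1% and 5.99% of all genes (median -0.04; with the block, 3 rose and 5 fell). Osgin1 had 23.3 and 25.1 normalised reads in TG, against 58.8 and 55.7 in IG (log2 fold change -1.21, adjusted p = 0.0101), Slc7a11, for the cystine transporter, had 460.2 and 374 normalised reads in TG, against 674 and 580.0 in IG (log2 fold change -0.59, adjusted p = 0.0223), and Gpx1, for a glutathione peroxidase, had 3273 and 3540.4 normalised reads in TG, against 4086 and 4427 in IG (log2 fold change -0.32, adjusted p = 0.0432). The TG libraries were lower for these 3 genes. Hmox1, the haem oxygenase gene, had 649 and 636 in TG and 663 and 676 in IG (log2 fold change -0.06, adjusted p = 0.738), and Nqo1 had 82.9 and 87.9 in TG and 105 and 103 in IG (log2 fold change -0.29, adjusted p = 0.311). The glutathione synthesis genes Gclc (0.22) and Gclm (0.22), the dismutase genes Sod1 (0.10) and Sod2 (0.24), and Cat, Gsr, Txnrd1, Srxn1, Prdx1, Prdx6 and Gpx4 were not called. The antioxidant element TGACNNNGC lay within 250 bases upstream of 4 of 12 members with a window, none of them called, and of 11.5% of all genes. A missed threshold does not show that these genes were equal in both groups.

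Heat shock genes fell for 4 of 14 members (28.6%, against 10.1% of all genes) and none rose. The median was -0.17, and with the block 1 rose and 8 fell. The inducible Hsp70 gene Hspa1a had 169 and 181 normalised reads in TG, against 444 and 577 in IG (log2 fold change -1.53 ± 0.19 SE, adjusted p = 0.0018), and its copy Hspa1b had 382 and 519 normalised reads in TG, against 968 and 853 in IG (log2 fold change -1.03 ± 0.18 SE, adjusted p = 0.00811). The copies are near-identical, so the split of reads between them is uncertain, though both were lower in both TG libraries. Bag3, for an Hsp70 cochaperone, had 435 and 497 normalised reads in TG, against 752 and 758 in IG (log2 fold change -0.70, adjusted p = 0.0137), and Cryab fell by 0.41 on the log2 scale. Hspb1, Hspa8, Hsph1, Hsp90ab1, Hspe1, Dnaja1, Hspd1, Dnajb1, Hsp90aa1 and Hspa4l were not called, at -0.24 to 0.35. The promoters of the pair are shown for their likeness and because they hold the heat shock element GAANNTTC, which was found within 250 bases upstream of 6 of 10 members with a window and of 7.73% of all genes; it reads the same on both strands. The 150 bases before the start of Hspa1a (chr17:34972157-34972306 on the minus strand) and Hspa1b (chr17:34959239-34959388 on the minus strand), from RefSeq on GRCm38.p6, follow with the match in capitals.
Hspa1a: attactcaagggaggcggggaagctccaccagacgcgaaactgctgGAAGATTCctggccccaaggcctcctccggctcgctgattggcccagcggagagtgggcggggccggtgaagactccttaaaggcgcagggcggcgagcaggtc
Hspa1b: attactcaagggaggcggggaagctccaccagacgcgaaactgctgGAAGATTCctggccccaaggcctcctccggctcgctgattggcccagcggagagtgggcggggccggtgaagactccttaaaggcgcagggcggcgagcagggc

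Genes of the unfolded protein and integrated stress responses divided. Of 15, 3 (20%) fell and 2 (13.3%) rose, against 10.1% and 5.99% of all genes, with a median of -0.27. With the block 3 rose and 7 fell, where 16.7% of all genes rose and 17.7% fell. Xbp1, a transcription factor gene of the endoplasmic reticulum, had 1101 and 1161 normalised reads in TG, against 1664 and 1713 in IG (log2 fold change -0.58, adjusted p = 0.00213), and the chaperone genes Hspa5 (log2 fold change -0.40, adjusted p = 0.0213) and Pdia4 (log2 fold change -0.51, adjusted p = 0.0173) fell. Ddit3, for the factor CHOP, had 408 and 402 normalised reads in TG, against 313 and 295 in IG (log2 fold change 0.41, adjusted p = 0.0377), and Sesn2 had 364 and 387 normalised reads in TG, against 259 and 278 in IG (log2 fold change 0.48, adjusted p = 0.0347); neither rise was called with total read scaling. Atf4, Trib3, Chac1, Asns, Psat1, Ppp1r15a, Herpud1, Hsp90b1, Sdf2l1 and Dnajb9 were not called. CCACG, part of the ER stress element, lay within 250 bases upstream of 10 of the 15 members, Sesn2 and Hspa5 among them, and of 31.0% of all genes. Of 16 p53 target and apoptosis genes 1 fell (6.25%, against 10.1% of all genes; with the block 4 rose and 3 fell): Cdkn1a, for the cell cycle inhibitor p21, had 1525 and 1557 normalised reads in TG, against 2489 and 2819 in IG (log2 fold change -0.78 ± 0.11 SE, adjusted p = 0.00286). Mdm2 (0.22), Bax (-0.14), Bbc3 (0.29), Trp53inp1 (-0.29) and Zmat3 (0.33) were among those not called.

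Of 15 measured hypoxia genes, 3 (20%) were called lower and 1 (6.67%) higher, against 10.1% and 5.99% of all genes (median -0.021; with the block, 2 rose and 6 fell). Ndrg1, which Schwann cells also express, had 2619 and 2453 normalised reads in TG, against 5589.5 and 5228 in IG (log2 fold change -1.09 ± 0.076 SE, adjusted p = 0.000106), and Ldha, for lactate dehydrogenase, had 3269 and 3511 normalised reads in TG, against 4315 and 4349 in IG (log2 fold change -0.35, adjusted p = 0.0156); Egln3 fell by 0.49 on the log2 scale. Bnip3 had 2007 and 1977 normalised reads in TG, against 1582 and 1516 in IG (log2 fold change 0.36, adjusted p = 0.0283), a rise not called with total read scaling. Vegfa (0.33), Adm, Slc2a1, Pgk1, Aldoa, Eno1, Hk2, Pdk1, P4ha1, Ddit4 and Ankrd37 did not pass the test, and Car9 had a mean under 10. Glucocorticoid-responsive genes fell for 5 of 14 members (35.7%, against 10.1% of all genes) and none rose, with a median of -0.077. Sgk1 had 1899 and 1899 normalised reads in TG, against 3368 and 3281 in IG (log2 fold change -0.81 ± 0.069 SE, adjusted p = 0.000269). Sult1a1 had 269 and 233 normalised reads in TG, against 628 and 637 in IG (log2 fold change -1.33, adjusted p = 0.000182). Lcn2, Cdkn1a and Errfi1 fell as given above. Fkbp5 (0.066), Tsc22d3 (0.19), Per1, Zbtb16, Klf9, Mt1, Mt2, Pdk4 and Arrdc2 were not called.

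Proliferation genes fell in TG. Of 12 cell cycle genes 11 fell and none rose (median -0.84), and of 12 DNA replication genes 8 fell and none rose (median -0.54). Top2a, for the topoisomerase of dividing cells, had 306 and 284 normalised reads in TG, against 675 and 607 in IG (log2 fold change -1.12 ± 0.10 SE, adjusted p = 0.000318), and Cdk1, for the kinase that starts mitosis, had 90.9 and 94.7 normalised reads in TG, against 169.5 and 160.1 in IG (log2 fold change -0.82 ± 0.12 SE, adjusted p = 0.00396). Mki67, for the proliferation antigen Ki-67, had 742 and 669.7 normalised reads in TG, against 1294 and 1089 in IG (log2 fold change -0.75 ± 0.12 SE, adjusted p = 0.00659). IG libraries were higher than TG libraries for all 11. Plk1, Aurkb, Ccnb1, Ccnb2, Bub1, Birc5, Kif11 and Ccna2 fell, with log2 fold changes of -0.98 to -0.69, and Cenpf (-0.64) was not called. Rrm2, for a subunit of ribonucleotide reductase, had 173 and 180.3 normalised reads in TG, against 317 and 331 in IG (log2 fold change -0.87 ± 0.099 SE, adjusted p = 0.00107), and Mcm5, of the replicative helicase, had 164 and 178 normalised reads in TG, against 304 and 336 in IG (log2 fold change -0.90 ± 0.11 SE, adjusted p = 0.00184). Cdc6 (-1.22), Mcm2, Mcm3, Mcm4, Mcm6 and Mcm7 fell, and Pcna (-0.27), Tyms, Gins2 and Cdt1 were not called. Neutrophil and marrow genes and precursor genes were lower in TG too, as given above, and their part in the proliferation values was not tested.

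Promoters of Top2a and Cdk1 are shown as called members with more than 1 CCAAT box, a motif that was chosen after values were seen. CCAAT on either strand was found within 250 bases upstream of 9 of 10 cell cycle members with a window, and of 37.5% of all genes; TTTGAA, part of the cell cycle homology region and also chosen after values were seen, was found in 5 of the 10 and in 18.3% of all genes. The 150 bases before the start of Top2a (chr11:99024190-99024339 on the minus strand) and of Cdk1 (chr10:69352913-69353062 on the minus strand), RefSeq, GRCm38.p6, have the matches in capitals (ATTGG is the other strand).
Top2a: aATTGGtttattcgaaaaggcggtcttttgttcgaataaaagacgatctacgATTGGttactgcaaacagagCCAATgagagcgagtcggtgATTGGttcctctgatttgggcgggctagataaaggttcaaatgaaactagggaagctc
Cdk1: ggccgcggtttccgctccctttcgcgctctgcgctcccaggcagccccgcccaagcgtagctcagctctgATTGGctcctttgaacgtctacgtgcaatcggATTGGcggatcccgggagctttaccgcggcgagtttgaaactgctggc

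Housekeeping and metabolic lists held few or no calls without the block. With the block, 16.7% of all genes rose and 17.7% fell. Mitochondrially encoded genes had 0 of 12 measured members called in limma, 0 with voom weights and 1 at an unadjusted p under 0.05 (median 0.17; with the block, 4 rose and 2 fell); mt-Co1, for a subunit of cytochrome oxidase, had 445255 and 403669 normalised reads in TG, against 379465 and 334012 in IG, and mt-Nd1 had 145215 and 139933 normalised reads in TG, against 131292 and 122461 in IG. The members ranged from -0.39 for mt-Nd6 to 0.31 for mt-Co2, and mt-Nd4l had a mean under 10. Of 18 nuclear oxidative phosphorylation genes 1 (5.56%) rose, against 5.99% of all genes, with a median of 0.14. With the block 11 rose and 0 fell, against 16.7% and 17.7% of all genes. The 1 that rose without the block was Ndufb9, of complex I. It had 3468 and 3513 normalised reads in TG, against 2693 and 2725 in IG (log2 fold change 0.37, adjusted p = 0.0102). The other 17 ranged from -0.012 for Atp5b to 0.23 for Cox4i1. No cytosolic ribosomal protein gene of 18 was called in limma or with voom weights, and 1 had an unadjusted p under 0.05 (median -0.026; with the block, 1 rose and 5 fell), with Rplp0 at -0.19 and Rps24 at 0.15 as the extremes; Rpl13a had 12138 and 13438 in TG and 12131 and 13359 in IG. None of 14 cholesterol synthesis genes was called in limma or with voom weights, and 4 had an unadjusted p under 0.05 (median -0.0085; with the block, 2 rose and 4 fell); Hmgcs1, for an early enzyme, had 34641 and 31147 in TG and 34847 and 29938 in IG. The sterol element TCACNCCAC lay within 250 bases upstream of 1 of 8 members with a window, and of 1.22% of all genes.

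Of 16 circadian clock genes, 2 (12.5%) were called higher and none lower, against 5.99% and 10.1% of all genes (median 0.14; with the block, 4 rose and 0 fell). Both are output genes of the PAR bZIP family: Tef had 3137 and 3217 normalised reads in TG, against 2203 and 2311 in IG (log2 fold change 0.49, adjusted p = 0.00446) and Hlf had 751 and 657 normalised reads in TG, against 554 and 483 in IG (log2 fold change 0.44, adjusted p = 0.0458), and total read scaling called 1 of them. Dbp (0.22), Nr1d1, Nr1d2, Per1, Per2, Per3, Cry1, Cry2, Arntl, Clock, Npas2, Ciart, Bhlhe40 and Bhlhe41 were not called. The E-box CACGTG lay within 250 bases upstream of 5 of 14 members with a window, Tef among them, and of 6.86% of all genes. The design text of the series mentions modification of mRNA. Of 15 genes of m6A methylation, the main internal mark of mRNA, none was called in limma or with voom weights. At an unadjusted p under 0.05 there were 3 (median -0.09). With the block 1 rose and 2 fell, against 16.7% and 17.7% of all genes. Mettl3, for the methyltransferase, had 139 and 145 normalised reads in TG, against 176 and 212 in IG (log2 fold change -0.44, adjusted p = 0.103), and the demethylase genes Fto (0.25) and Alkbh5 (0.079) were not called either. The other 12 lay between -0.33 (Igf2bp2) and 0.19 (Ythdc2), and upper quartile scaling called 1 of the 15.

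**Figure D5:**
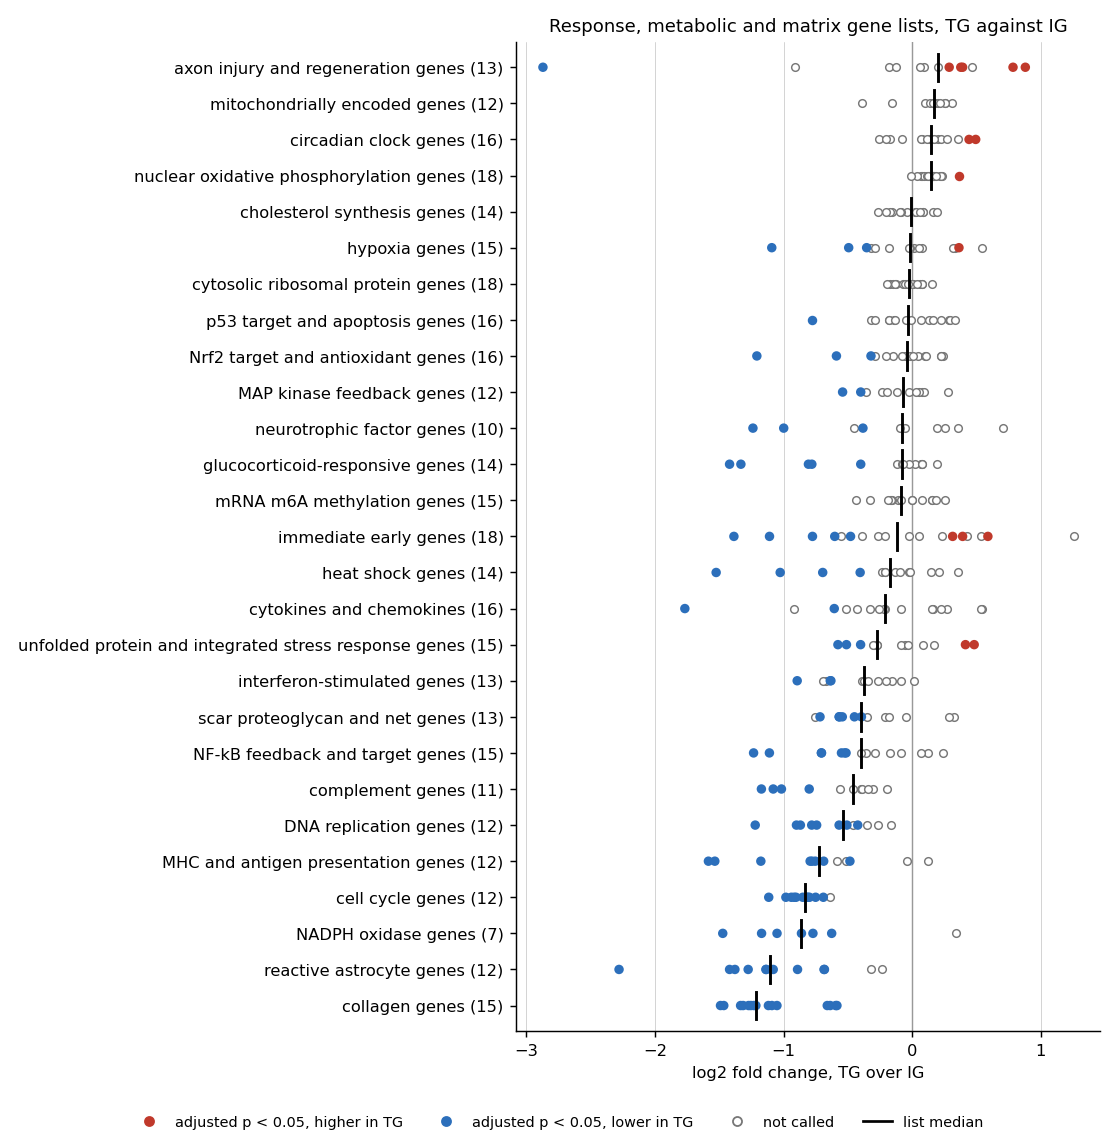
Each point is a gene of a response, metabolic or matrix list with a mean of 10 or more, at its log2 fold change of TG over IG; lists run down the vertical axis by their median (black bar), with the number of members plotted. Filled points have an adjusted p under 0.05; all 15 collagen genes are blue (lower in TG) and no ribosomal protein, cholesterol synthesis, mitochondrially encoded or m6A gene is filled (calls without the block).

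Of the 12 genes that the naming rule picked for their rise, Xist remains to be described. Xist, the RNA that coats the inactive X chromosome of female cells, had 541 and 475 normalised reads in TG, against 176 and 175 in IG (log2 fold change 1.52 ± 0.13 SE, adjusted p = 0.000239). The Y-linked genes, chosen after values were seen, were not called: Ddx3y had 1808 and 1601 in TG and 1856 and 1535 in IG, Eif2s3y 862 and 882 in TG and 894 and 819 in IG, Kdm5d 418 and 348 in TG and 408 and 353 in IG and Uty 315 and 259 in TG and 339.9 and 320.2 in IG. Transcripts of both sexes were present in all 4 libraries. NG libraries had 526 and 431 reads of Xist.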

How the data were processed

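RNA was sequenced from 6 libraries, 2 in each of 3 groups, of which TG and IG are compared here. Per the submitters' processing notes, the sources name Bowtie2 2.0.6, HTSeq 0.6.1 and build mm10. Each deposited table compares 2 groups; per the file headers it holds a mean read count of each group, which the authors had divided by size factors (unit: signal, since the values are not whole), a log2 fold change, and a p-value with its adjusted value, both as deposited by the authors. No strand setting is given in the sources used here. Where overlapping genes share reads, they cannot be told apart.

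Reads per library were solved from the means of the tables that share a group; all 35275 genes came out whole within 0.001. Library A of a group is the deeper one, B the shallower. Scaling used size factors by the median of ratios. Since the files hold normalised means and not counts, limma 3.58.1 (R 4.3.3) was run on log2(normalised reads + 1) with a variance trend, on 24511 genes with a read in any of the 6 libraries in 1 fit, which had 3 residual and 5.23 prior degrees of freedom. The test was two-sided, with Benjamini-Hochberg adjusted p under 0.05; fold changes understate those of low genes. Results are given for genes with a mean of 10 or more. Tables and figures used Python 3.11.15 with pandas 2.3.3, numpy 2.4.6, scipy 1.17.1 and matplotlib 3.10.9. The steps were tested on simulated data with independent libraries, which did not hold the A minus B differences that the groups share. Symbols came from GENCODE M21 for 34490 of 35275 genes, and promoter sequences from RefSeq on GRCm38.p6. Counting intervals (95%, exact) and the floor of 3 reads cover counting error only.

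Text names the 12 genes with the largest positive and the 12 with the largest negative log2 fold change among called genes with a mean of 100 or more whose TG and IG libraries do not overlap, leaving out symbols of the Gm-number, Rik, LOC, AC-number and -ps types, up to 4 called members of each list with the smallest p, any member called against the majority, 2 high members of each list without a call, and 9 markers of the labelled cells; further members of a list are given with their values. Some list members that enter the counts are not reported here. The 53 lists (669 distinct genes, 20 lists of cell type markers), the motifs and the comparison were chosen with earlier results of these data known. Alternatives were 3 other scalings, pseudocounts of 0.5 and 5, 2 other filters, a fit of TG and IG alone, voom weights, no variance trend, leaving out each library and, chosen after seeing the data, a block on depth order. The labels number the libraries of a group, but the deposited means do not tie those numbers to A and B. At a mean of 1000 or more the A minus B differences had r = 0.753 to 0.886 between groups, and at 10 or more 0.219 to 0.377.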

Additional observations from a re-analysis of the deposited data

How the results depend on the processing

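The deposited group means carry no replicate numbers, so libraries could be paired by their depth order (A, B) alone. With that order as a block, chosen after seeing the data, limma called 5549 genes (2693 higher, 2856 lower). With voom weights as well it called 5613 (2857 higher, 2756 lower). With the TG and IG libraries alone in the fit, which leaves 1 residual degree of freedom, it called 6914 (3571 higher, 3343 lower). The blocked fit called 420 of 650 measured list members, against 260 without it, all 260 among them. It moved 29 of the 53 lists by over 1.5 times and the commoner direction of 3. Without voom weights, the block leaves log2 fold changes as they were, by its construction. The cause of the shared differences was not tested. With total read scaling 636 genes were higher in TG. With no filter the calls were 1162 (383 higher, 779 lower, 412 at least 2-fold). Without a variance trend they were 961 (171 higher, 790 lower). With the TG and IG libraries alone in the fit 1624 genes were higher. All settings other than these and the 12 that left out a library (4 libraries in turn, each under 3 fits) kept the remaining counts within 1.5 times. Over those 12, called genes ranged from 0 to 1895, those higher in TG from 0 to 684, those lower from 0 to 1211 and those at least 2-fold from 0 to 710; the variance of the lone library was assumed to equal that of the other groups. Those fits lose samples by construction. Of 176 called genes under the naming rule, 12 missed the threshold with total read scaling, 66 with no filter, 80 without a variance trend, and 0 to 3 under each of the other settings with all libraries, the block included; none changed direction under any setting. Uncalled genes near 0 did change direction, and the cause was not tested. With total read scaling Rpl13a had -0.069, Hmgcs1 -0.050 and Cx3cr1 -0.071. With size factors of the TG and IG libraries alone Rpl13a had -0.0096 and Cx3cr1 -0.012, and with the block and voom weights Cx3cr1 had -0.0018. Without a library the ranges were -0.071 to 0.080 for Rpl13a, -0.089 to 0.13 for Hmgcs1, -0.041 to 0.19 for Alkbh5 and -0.046 to 0.052 for Cx3cr1. No scaling moved the median of all genes by over 0.1. Depth limits low genes: the median standard error was 0.31 (log2) at a mean of 10 to 100 and 0.088 at 1000 or more.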

Other observations

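The genes in these paragraphs were chosen after their values were seen, and belong to no list of the report. Mesothelium, the lining of body cavities, has several known marker genes. Upk3b, for a uroplakin of mesothelial cells, had 136 and 153 normalised reads in TG, against 3.10 and 5.80 in IG (log2 fold change 4.78, adjusted p = 5.63e-05, limma). Wt1, a transcription factor gene of mesothelium, had 36.2 and 28.5 normalised reads in TG, against 8.52 and 4.64 in IG (log2 fold change 2.18, adjusted p = 0.0196), Lrrn4 had 25.7 and 28.5 in TG and 8.52 and 13.9 in IG (log2 fold change 1.24, adjusted p = 0.0482), and Krt19 had 92.5 and 91.3 in TG and 58.8 and 52.2 in IG (log2 fold change 0.72, adjusted p = 0.0498). All 4 were higher in both TG libraries than in both IG libraries. Msln, for mesothelin, went the other way with 434 and 408 normalised reads in TG, against 718 and 734 in IG (log2 fold change -0.79, adjusted p = 0.00129). Krt14, a keratin gene of stratified epithelium, had 29.8 and 30.8 normalised reads in TG, against 2.32 and 2.32 in IG (log2 fold change 3.24, adjusted p = 0.00501).

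Muscle genes outside the list also went both ways. Sln, for the calcium pump regulator sarcolipin, had 135 and 159.7 normalised reads in TG, against 31.0 and 34.8 in IG (log2 fold change 2.13, adjusted p = 0.000411), and Myh1, for a fast myosin heavy chain, had 228 and 230.5 normalised reads in TG, against 135 and 125 in IG (log2 fold change 0.81, adjusted p = 0.00291). Myl2 (0.92), Mb (0.92), Tnnt2 (0.96) and Tcap (0.88) were higher in TG as well, with log2 fold changes in parentheses here and below. Myh4, for another fast myosin heavy chain, had 54.7 and 50.2 normalised reads in TG, against 828 and 710.0 in IG (log2 fold change -3.85, adjusted p = 1.48e-06), and Ttn, for titin, had 47.5 and 43.4 normalised reads in TG, against 157 and 186 in IG (log2 fold change -1.89, adjusted p = 0.000249). Xirp2 (-1.92), Trdn (-2.06), Myom2 (-2.04) and Myh2 (-1.24) were lower in TG, and Myh7 had a mean under 10.

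Further liver and peripheral nerve genes were lower in TG. Hnf4a, for a hepatocyte transcription factor, had 0.804 and 0 in TG and 101 and 81.2 in IG, 197-fold lower in TG with a 95% counting interval of 34.9 to 7810, and Cyp3a11, for a liver cytochrome, had 0 and 0 in TG and 224 and 174 in IG, at least 144-fold lower with TG at a floor of 3 reads. Dhh, for the ligand desert hedgehog of Schwann cells, had 109 and 119.8 normalised reads in TG, against 498 and 647 in IG (log2 fold change -2.31, adjusted p = 0.000107). The sympathetic neuron genes Dbh (-3.38) and Slc6a2 (-2.40) were lower in TG, while Th, which sympathetic and central neurons share, had 55.5 and 69.6 in TG and 79.0 and 69.6 in IG (log2 fold change -0.25, adjusted p = 0.521). Imprinted genes went both ways. Meg3 (10862 and 13479 in TG and 5859 and 6485 in IG), Peg10 (0.81), Rtl1 (0.91) and Magel2 (0.96) were higher in TG. H19 was lower in TG (log2 fold change -1.36, adjusted p = 4.16e-05, limma), and so was Igf2, given among the fibroblast genes. The neuronal RNA Snhg11 had 5794 and 5747 normalised reads in TG, against 2228 and 2229 in IG (log2 fold change 1.37, adjusted p = 2.88e-05), and the dorsal cord genes Zic1 (0.75) and Skor1 (0.99) were higher too. Rpsa, a ribosomal protein gene outside the list, had 16697 and 16689.8 normalised reads in TG, against 7909 and 7241 in IG (log2 fold change 1.14, adjusted p = 0.0001), and its near-identical copy Rpsa-ps10 had 1561 and 1472 normalised reads in TG, against 7732 and 8499.9 in IG (log2 fold change -2.42, adjusted p = 6.73e-06). Rpl17 had 7157 and 7576 in TG and 7246 and 7244 in IG, and its copy Rpl17-ps5 had 256 and 262 in TG and 0 and 0 in IG, at least 186-fold higher in TG with IG at a floor of 3 reads. Reads of such copies may be split between them, so these values are uncertain.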
